A study of Mus musculus with 24 samples.

Results

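The monocyte and dendritic cell priming genes described here are 10 regulators and receptors of these lineages: Irf8, Klf4, Batf3, Tcf4 and Id2 in the nucleus, and Csf1r, Ccr2, Cx3cr1, Ly86 and Siglech at the cell surface. They were chosen by name, as the rows of the table of read counts that carry these symbols, and each of the 10 was found among the 24091 genes of the table. Of these, 9 passed the filter on low counts and were tested with 13520 genes in all, and Batf3 did not pass.

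Bulk RNA-seq was done on sorted bone marrow Lin-Sca-1+c-Kit+ cells (LSKs), the fraction of mouse marrow that holds hematopoietic stem cells and multipotent progenitors. Each of the 24 libraries came from 1 mouse, and each of the 4 groups had 6 mice, with 3 of either sex. The WT mice were miR-142+/+ and miR-142 KO mice were miR-142-/-, both without BCR-ABL, the fusion kinase that drives chronic myeloid leukemia (CML). CP CML mice were miR-142+/+ BCR-ABL, the model of the chronic phase, and BC CML mice were miR-142-/- BCR-ABL, the model of blast crisis. In both CML groups a tetracycline-controlled transactivator under the SCL promoter drove BCR-ABL, so that the fusion was limited to cells with SCL activity and was switched on by withdrawal of tetracycline, and these mice were sampled 2 weeks later. They had been matched for age, sex and SCL and BCR-ABL levels, and ages are not given in the sources used here. The miR-142 deletion was carried by every cell of the animal from the germ line, all mice were of the B6 background, and the methods give n = 5 per group where 6 mice were labelled.

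Monocytes and dendritic cells arise from progenitors that come to express PU.1 and IRF8. IRF8 directs cells to monocytes and dendritic cells and restrains the neutrophil fate, and mice that lack it develop a disease that resembles CML. KLF4 acts in monocyte differentiation. The dendritic branch divides further: TCF4 (E2-2), an E protein that binds E-box motifs, drives plasmacytoid dendritic cells, whereas ID2, which holds E proteins away from DNA, and BATF3 favor conventional dendritic cells. CSF1R is the receptor for M-CSF, CCR2 the receptor that takes monocytes out of the marrow toward CCL2, CX3CR1 the fractalkine receptor of monocytes and their precursors, and Ly86 (MD-1) the partner of the Toll-like receptor homolog CD180. Siglec-H is a surface lectin of mouse plasmacytoid dendritic cells.

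The deleted microRNA is shown first, since its loss defines 2 of the groups. Bases 2 to 8 of each mature strand, the seed, are in capitals in the RefSeq sequences below, which lie on the plus strand of chr11:87756867-87756887 and chr11:87756903-87756925 (GRCm38):
mmu-miR-142a-5p: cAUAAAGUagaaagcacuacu
mmu-miR-142a-3p: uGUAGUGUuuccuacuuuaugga
The reverse complement of each seed, ACTTTAT for 5p and ACACTAC for 3p, was looked for on the sense strand in the longest annotated 3' UTR of each gene (GENCODE vM21). None of the 10 genes held a match to the 3p seed, which was present in 6.92% of the 12609 tested genes with a 3' UTR. Csf1r and Tcf4 each held 1 match to the 5p seed, against 15.8% of tested genes, and the other members held 0. A match is a stretch of letters and was not tested as a site of repression.

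Promoters of 300 bases (250 before to 50 after the annotated start, RefSeq, GRCm38) were on hand for 8 of the 10 genes. Those of Irf8 and Siglech are printed because no comparison of Irf8 passed the test, whereas Siglech had the largest fold change of the members (26.5-fold lower in BC CML than in WT LSKs). A promoter of Irf8, chr8:120736108-120736407 on the plus strand, is shown with matches to the STAT-type motif TTCNNNGAA in capitals:
Irf8: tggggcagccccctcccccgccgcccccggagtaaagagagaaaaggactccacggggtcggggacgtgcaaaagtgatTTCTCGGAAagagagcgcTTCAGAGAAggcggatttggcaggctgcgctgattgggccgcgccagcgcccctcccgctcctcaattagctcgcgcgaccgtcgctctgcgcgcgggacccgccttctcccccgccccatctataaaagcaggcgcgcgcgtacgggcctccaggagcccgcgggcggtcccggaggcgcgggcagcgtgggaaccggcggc
It held 2 matches, whereas a second annotated Irf8 promoter, chr8:120738389-120738688 on the plus strand, held 0, and 8.3% of the 32851 promoters of that length held at least 1 and 0.457% at least 2. The motif reads alike on both strands, so each match was counted once. The promoter of Siglech, chr7:55767934-55768233 on the plus strand, is shown with matches to the E-box CANNTG, also the same on both strands, in capitals:
Siglech: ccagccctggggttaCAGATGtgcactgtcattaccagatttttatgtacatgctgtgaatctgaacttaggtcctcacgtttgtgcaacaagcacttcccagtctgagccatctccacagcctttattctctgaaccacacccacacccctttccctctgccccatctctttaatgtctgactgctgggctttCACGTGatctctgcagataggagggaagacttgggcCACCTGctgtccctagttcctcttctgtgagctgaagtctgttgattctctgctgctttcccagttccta
It held 3 matches. At least 3 were found in 17.6% and at least 1 in 72.3% of promoters, so the motif is common in windows of this length.

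Total counts per library ranged from 16267965 in CP CML replicate 1 to 24687077 in a BC CML library. Mir142 had 68 to 153 counts in each WT and CP CML library and 0 in each of the 12 libraries without miR-142, where 3 counts (0.123 to 0.151 CPM for a library, counting error only) are the limit that a count of 0 allows. Kit, a marker of the sort, had a group mean of 801 to 1109 CPM and Ly6a, which encodes Sca-1, of 41.7 to 110 CPM. Of the T cell markers that the sort removes, Cd3e had at most 4.07 CPM in any library. Sums over wider lists of lineage markers were higher. Summed T or NK cell markers had a group mean of 101 to 153 CPM. Summed B and plasma cell markers had 84.8 to 1007 CPM in WT and 179 to 805 CPM in CP CML LSKs. They had 28.1 to 58.6 CPM in miR-142 KO and 31.3 to 45.4 CPM in BC CML LSKs. WT replicate 3 stood apart. Its 16 marrow macrophage markers summed to 1862 CPM against a WT median of 209, and it was the highest WT library for Irf8, Csf1r, Ly86, Ccr2, Cx3cr1, Klf4, Siglech and Id2. Calls that changed without it are given in both forms.

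Levels are given as CPM, the read count as a share of the library total, with the totals corrected for composition by TMM. Groups were compared with edgeR's quasi-likelihood test in 1 fit of all 24 libraries, and a gene was called changed where the Benjamini-Hochberg adjusted p over all tested genes was below 0.05. The libraries come from separate mice, and comparisons below share groups, so they are not independent of each other.

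Against WT LSKs, Id2, Siglech and Tcf4 changed in miR-142 KO, and the same 3 genes together with Ccr2, Cx3cr1 and Csf1r changed in CP CML LSKs. In miR-142 KO against WT LSKs, 3 of the 9 tested members changed (1 higher, Id2; 2 lower, Siglech and Tcf4), against a background of 36.3% of tested genes (19.9% higher and 16.4% lower). In CP CML against WT LSKs, 6 changed (Ccr2, Cx3cr1, Id2 and Csf1r higher, Siglech and Tcf4 lower), against 45.4% (22.5% higher and 22.9% lower). In BC CML against CP CML LSKs, the comparison of blast crisis with chronic phase, 2 changed and both were lower (Siglech and Cx3cr1), against 38.0% (20.4% higher and 17.6% lower). In BC CML against miR-142 KO LSKs, 4 changed (Ccr2 and Id2 higher, Siglech and Tcf4 lower), against 39.6% (20.3% higher and 19.3% lower). The share of members called was thus near the background in miR-142 KO against WT and in BC CML against miR-142 KO LSKs. It was below it in BC CML against CP CML and above it in CP CML against WT LSKs, and these shares rest on 9 genes. With a mouse left out, 1 to 3 members were called in BC CML against CP CML and 4 to 6 in CP CML against WT LSKs. In a fit of the BC CML and CP CML libraries alone, 4 were called. The median log2 fold change of the 9 members was 0.55 in miR-142 KO against WT and 0.73 in CP CML against WT LSKs. It was -0.05 in BC CML against CP CML and -0.16 in BC CML against miR-142 KO LSKs. The median of all tested genes was 0.01, -0.02, 0.01 and -0.02 in the same order. The values of the groups did not overlap for 0 members in KO against WT (14.5% of tested genes), 2 in CP CML against WT (21.8%), 0 in BC CML against CP CML (20.7%) and 1 in BC CML against miR-142 KO (10.6%). Across the diagonal of the design, 5 members differed between BC CML and WT LSKs (65.0% of tested genes) and 1, Ccr2, between CP CML and miR-142 KO LSKs (36.6%). Irf8, Klf4 and Ly86 were called in none of these comparisons in the fit of all 24 libraries. In bulk RNA, fewer cells of a type and less RNA per cell cannot be told apart.

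**Figure D1:**
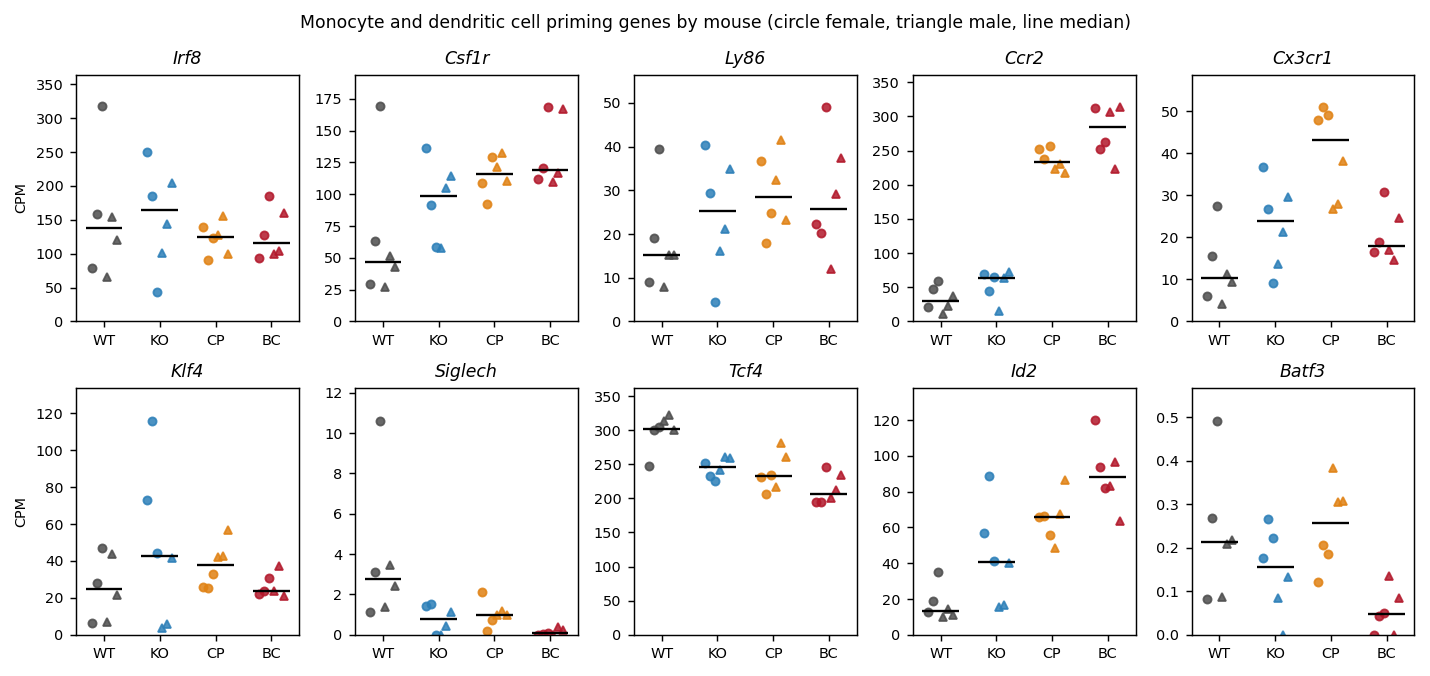
Level of each of the 10 genes in CPM (vertical axis, from 0) in every mouse of WT, KO (miR-142 KO), CP (CP CML), BC (BC CML), with circles for females, triangles for males and a line at the median of 6. Ccr2 lies at 217 CPM or above in all 12 CML libraries and at 73.1 CPM or below in the other 12, while the highest WT value of Irf8, Csf1r, Ly86 and Siglech belongs to 1 mouse.

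**Figure D2:**
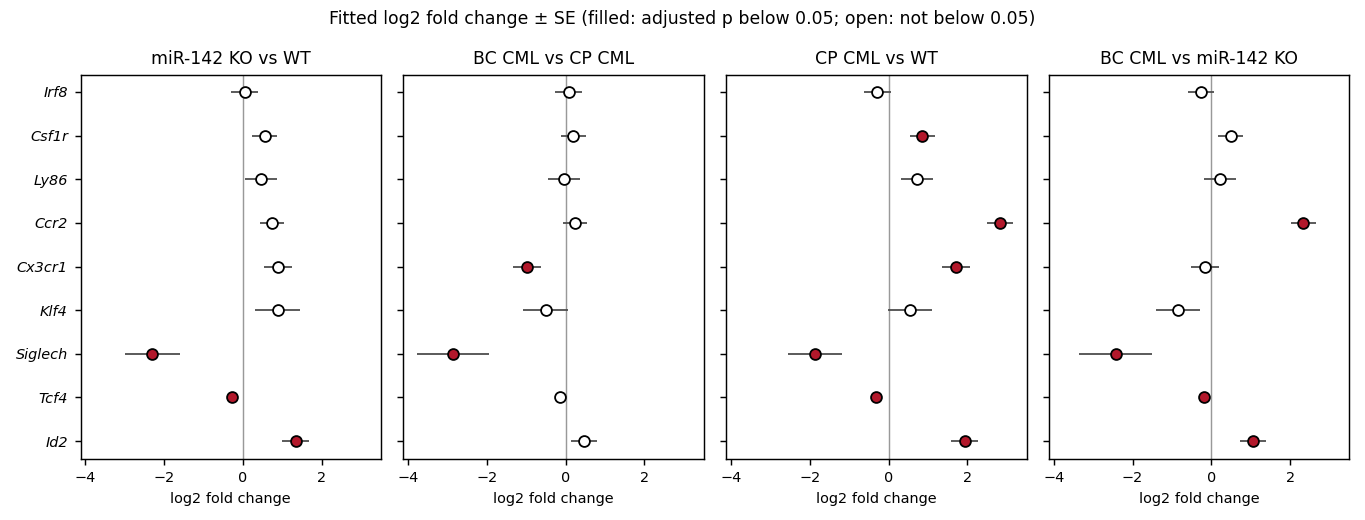
Fitted log2 fold change with its standard error for the 9 tested genes in 4 comparisons (horizontal axis, log2), filled where the adjusted p was below 0.05. Siglech lies left of 0 in each panel, and Ccr2 and Id2 lie furthest right in the panels that compare CML with normal LSKs.

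Among the chemokine receptors, Ccr2 (chr9:124102183-124113557, plus strand, mm10) separated CML from normal LSKs without overlap. In the 6 WT mice Ccr2 had 10.3 to 59.6 CPM (median 29.9), and the miR-142 KO mice had 15.4 to 73.1 CPM (64.2). The CP CML mice had 217 to 256 CPM (234) and the BC CML mice 223 to 313 CPM (284). The means of Ccr2 were 33.1 ± 18.5, 55.3 ± 21.9, 236 ± 15.8 and 278 ± 37.8 CPM (SD, n = 6 each). Ccr2 was therefore higher in every CML library than in any library without BCR-ABL. It rose 7.12-fold in CP CML over WT LSKs (log2 fold change 2.83, SE 0.32, edgeR adjusted p = 6.45e-07) and 5.04-fold in BC CML over miR-142 KO LSKs (2.33, SE 0.32, adjusted p = 8.56e-06). By the order of group means, BC CML did not pass the test against CP CML (log2 fold change 0.24, SE 0.30, adjusted p = 0.558), CP CML lay above miR-142 KO (2.10, SE 0.31, adjusted p = 1.59e-05), and miR-142 KO did not pass the test against WT (0.74, SE 0.31, adjusted p = 0.0659). That last value passed without WT replicate 2 (0.87, adjusted p = 0.0421), WT replicate 3 (0.99, adjusted p = 0.0138) or miR-142 KO replicate 4 (0.93, adjusted p = 0.00801). BC CML against CP CML passed in a fit of these groups alone (0.22, adjusted p = 0.03515). Of the genes of its ligands, Ccl2 had a mean of 0.225 CPM in WT, 0.701 CPM with miR-142 loss, 19.2 CPM in the chronic phase and 49.7 CPM in blast crisis. Ccl7 had 0.369 CPM in the chronic phase and 4.06 CPM in blast crisis, and lay under the limit of 3 counts in all libraries without BCR-ABL. Ccl2 rose in each of the 4 comparisons, with a log2 fold change of 6.37 in CP CML over WT and 1.38 in BC CML over CP CML LSKs (adjusted p = 8.42e-11 and 0.000183). Markers of mast cells and basophils rose in the same libraries. Their summed level of 10 genes was 276 to 827 CPM in WT and 491 to 3116 CPM in miR-142 KO LSKs. In CML it was 2347 to 4539 CPM (CP) and 6294 to 13134 CPM (BC), and 8 of 10 rose in CP CML over WT LSKs. None of these 10 was at 0 in all libraries of a group, and Mcpt4, Tpsb2 and Cma1, proteases of mast cells, had at most 4.801 CPM in WT. The part of these cells in the rise of Ccr2 was not tested.

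Cx3cr1 (chr9:120048683-120068296, minus strand, mm10) was highest in CP CML LSKs, and it is the member for which the effect of miR-142 loss differed with BCR-ABL. WT libraries spanned 4.13 to 27.3 CPM for Cx3cr1 (median 10.3) and miR-142 KO libraries 9.11 to 36.8 CPM (23.9). With BCR-ABL the span was 26.6 to 51.02 CPM (43.03) in the chronic phase and 14.5 to 30.7 CPM (17.98) in blast crisis. Means over 6 mice were 12.3 ± 8.39, 22.8 ± 10.3, 40.1 ± 10.9 and 20.4 ± 6.14 CPM (SD, n = 6 each). The 3 CP CML females held the 3 highest values of all 24 libraries, and the ranges of CP CML and BC CML overlapped. It rose 3.26-fold in CP CML over WT LSKs (log2 fold change 1.71, SE 0.36, adjusted p = 0.000583) and fell by 0.98 on the log2 scale in BC CML against CP CML LSKs (SE 0.35, adjusted p = 0.0306). In LSKs without BCR-ABL the fitted change with miR-142 loss was in the other direction and did not pass the test (0.89, SE 0.36, adjusted p = 0.0527), but did without WT replicate 3 (1.31, adjusted p = 0.00360) and likewise without miR-142 KO replicate 3 or 4 or BC CML replicate 3 (adjusted p 0.0198 to 0.0496). The difference of both effects was -1.87 (log2, SE 0.50, adjusted p = 0.0338), and Cx3cr1 was the 1 member called in it, against 3.99% of tested genes. In its order of means (CP CML, miR-142 KO, BC CML, WT) no group passed the test against the next. For BC CML against WT the value was 0.73 (adjusted p = 0.0757), and 1.14 without WT replicate 3 (adjusted p = 0.00482). For CP CML against miR-142 KO it was 0.81 (adjusted p = 0.0703), and it passed without WT replicate 3 or 4 or miR-142 KO replicate 1 (adjusted p 0.0355 to 0.0472) and in a fit of these groups alone (adjusted p = 0.0460). With sex as a covariate, BC CML against WT (adjusted p = 0.0411) and miR-142 KO against WT (adjusted p = 0.0269) also passed. The fall in BC CML was lost without CP CML replicate 1, 2 or 3 or BC CML replicate 1, 2, 4 or 5 (log2 fold change -0.97 to -0.91, adjusted p 0.0528 to 0.0605). The difference of effects was lost without WT replicate 1, 5 or 6, miR-142 KO replicate 1 or 6, CP CML replicate 2 or 3, or BC CML replicate 1 or 5 (-1.87 to -1.70, adjusted p 0.0516 to 0.0605). Its ligand gene Cx3cl1 was low, with a mean of 2.499 CPM in WT and 1.1 CPM in CP CML LSKs (log2 fold change -1.17, adjusted p = 0.00455).

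Irf8 (chr8:120736358-120756692, plus strand, mm10), the regulator at the head of the program, was detected in all 24 libraries, and no comparison of it passed the test. Irf8 lay between 65.1 and 318 CPM in WT mice, with a median of 137, and between 42.95 and 249 CPM in miR-142 KO mice, with a median of 165. CP CML mice had 90.1 to 156 CPM (125), and BC CML mice had 94.04 to 185 CPM (116). Averaged by group this gave 149 ± 90.9, 155 ± 74.8, 122 ± 24.3 and 129 ± 37.03 CPM (SD, n = 6 each). All 4 ranges overlapped, and both normal groups contained libraries above and below every CML library. The log2 fold change was 0.05 (SE 0.34, adjusted p = 0.922) in miR-142 KO against WT, -0.29 (SE 0.34, adjusted p = 0.509) in CP CML against WT and 0.07 (SE 0.34, adjusted p = 0.885) in BC CML against CP CML LSKs. Its coefficient of variation was 60.9% in WT and 48.4% in miR-142 KO, against 19.9% in CP CML and 28.8% with both alterations, a description that was not tested. WT replicate 3 (318 CPM) and miR-142 KO replicate 3 (43.0 CPM) were the highest and the lowest of the 24.

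Klf4 (chr4:55527137-55532475, minus strand, mm10) varied widely within miR-142 KO LSKs. In the 6 WT mice Klf4 had 6.197 to 46.98 CPM (median 24.97), and the miR-142 KO mice had 3.74 to 116 CPM (42.9). The CP CML mice had 25.3 to 56.6 CPM (37.6) and the BC CML mice 20.98 to 37.5 CPM (23.6). The means of Klf4 were 25.7 ± 17.5, 47.4 ± 42.6, 37.7 ± 11.9 and 26.4 ± 6.41 CPM (SD, n = 6 each). In miR-142 KO mice the 3 females had 73.1, 116 and 44.3 CPM and the 3 males 3.74, 5.83 and 41.5 CPM, a 31.0-fold span within 1 group. No comparison passed the test in the fit of all 24 libraries (miR-142 KO against WT, log2 fold change 0.88, SE 0.56, adjusted p = 0.227). The value for BC CML against CP CML was -0.51 there (SE 0.56, adjusted p = 0.497). In a fit of these groups alone it was -0.53 and passed (adjusted p = 0.04115). The genes whose levels were most like those of Klf4 were Dusp1 (Pearson r = 0.96), Klf2 (r = 0.96) and Fos (r = 0.95), and r was 0.97, 0.97 and 0.98 after group means were subtracted. Dusp1 and Fos are immediate early genes, which respond within minutes to stimulation and to cell handling, and their part in the spread of Klf4 was not tested.

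Batf3 (chr1:191097880-191108943, plus strand, mm10), the AP-1 factor of conventional dendritic cells that take up and cross-present antigen, was close to the limit of detection. The WT libraries had 2 to 12 counts each and the miR-142 KO libraries 0 to 6, and those of CP CML had 2 to 9 and those of BC CML 0 to 3. The ranges overlapped, and no library was above 0.491 CPM. In a fit without the filter its log2 fold change was -2.17 (SE 0.63, adjusted p = 0.0118) in BC CML against CP CML LSKs and -0.62 (SE 0.55, adjusted p = 0.431) in miR-142 KO against WT LSKs.

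Csf1r (chr18:61105572-61131139, plus strand, mm10), the M-CSF receptor, had its lowest mean in WT LSKs, where 1 mouse stood far above the others. WT libraries spanned 27.4 to 169 CPM for Csf1r (median 47.1) and miR-142 KO libraries 58.04 to 136 CPM (98.3). With BCR-ABL the span was 92.4 to 133 CPM (116) in the chronic phase and 109 to 168 CPM (119) in blast crisis. Means over 6 mice were 63.97 ± 53.4, 93.9 ± 31.3, 116 ± 14.9 and 132 ± 27.5 CPM (SD, n = 6 each). WT replicate 3 had the highest value of all 24 libraries, and the other 5 WT mice lay at 63.5 CPM or below. Csf1r rose 1.81-fold in CP CML over WT (log2 fold change 0.86, SE 0.32, adjusted p = 0.0326) and 2.07-fold in BC CML over WT LSKs (1.05, SE 0.32, adjusted p = 0.00645). In its order of means (BC CML, CP CML, miR-142 KO, WT) no group passed the test against the next. The value for miR-142 KO against WT was 0.55 (SE 0.32, adjusted p = 0.182), and without WT replicate 3 it was 1.14 (adjusted p = 0.000376). The rise in CP CML over WT was 1.45 without WT replicate 3 (adjusted p = 3.18e-05) and was lost without WT replicate 1, 4, 5 or 6 or CP CML replicate 3 or 5 (0.71 to 0.84, adjusted p 0.0535 to 0.0779), and also in a fit of these 2 groups alone (0.86, adjusted p = 0.0704).

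Ly86 (chr13:37345345-37419036, plus strand, mm10) followed Irf8 from mouse to mouse. Ly86 lay between 7.88 and 39.5 CPM in WT mice, with a median of 15.3, and between 4.56 and 40.5 CPM in miR-142 KO mice, with a median of 25.3. CP CML mice had 17.9 to 41.4 CPM (28.5), and BC CML mice had 12.01 to 49.1 CPM (25.8). Averaged by group this gave 17.7 ± 11.5, 24.4 ± 13.2, 29.4 ± 8.92 and 28.4 ± 13.3 CPM (SD, n = 6 each). All ranges overlapped, with miR-142 KO replicate 3 the lowest library, as for Irf8. No comparison passed the test: the log2 fold change was 0.73 (SE 0.41, adjusted p = 0.152) in CP CML against WT, 0.46 (SE 0.41, adjusted p = 0.395) in miR-142 KO against WT and -0.05 (SE 0.41, adjusted p = 0.939) in BC CML against CP CML LSKs. Without WT replicate 3 the first of these was 1.15 (adjusted p = 0.0223) and that of BC CML against WT was 1.09 (adjusted p = 0.0208).

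Tcf4, Id2 and Siglech belong to the plasmacytoid branch and its opponent. Tcf4 (chr18:69344492-69687967, plus strand, mm10), the E protein of plasmacytoid dendritic cells, fell by small steps with little spread. In the 6 WT mice Tcf4 had 247 to 323 CPM (median 302), and the miR-142 KO mice had 225 to 260.5 CPM (247). The CP CML mice had 206 to 281 CPM (233) and the BC CML mice 195 to 246 CPM (207). The means of Tcf4 were 298 ± 26.3, 245 ± 14.4, 239 ± 27.95 and 214 ± 21.5 CPM (SD, n = 6 each). Of the 6 WT libraries, 5 lay above every library of the other groups and WT replicate 1 lay within them. Tcf4 fell by 0.28 on the log2 scale in miR-142 KO against WT (SE 0.08, adjusted p = 0.00509), by 0.32 in CP CML against WT (SE 0.08, adjusted p = 0.00153) and by 0.48 in BC CML against WT LSKs (SE 0.08, adjusted p = 8.52e-06). It also fell by 0.19 in BC CML against miR-142 KO LSKs (SE 0.08, adjusted p = 0.0432), and the value for BC CML against CP CML was -0.16 (SE 0.08, adjusted p = 0.105). The call against miR-142 KO was lost without miR-142 KO replicate 1, 4, 5 or 6 or BC CML replicate 1, 2, 4 or 5 (-0.20 to -0.18, adjusted p 0.0567 to 0.0924), and -0.16 became -0.22 without CP CML replicate 2 (adjusted p = 0.0315) or BC CML replicate 3 (adjusted p = 0.0272). The other E proteins, Tcf3 and Tcf12, fell in BC CML against CP CML LSKs (log2 fold change -0.33 and -0.20, adjusted p = 4.37e-05 and 4.91e-05).

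Id2 (chr12:25093799-25096092, minus strand, mm10), the inhibitor of E proteins, went the other way. WT libraries spanned 10.04 to 35.3 CPM for Id2 (median 13.4) and miR-142 KO libraries 15.4 to 89.00 CPM (40.8). With BCR-ABL the span was 48.6 to 86.7 CPM (65.9) in the chronic phase and 63.8 to 120.1 CPM (88.5) in blast crisis. Means over 6 mice were 17.1 ± 9.48, 43.2 ± 27.4, 65.02 ± 12.96 and 89.9 ± 18.8 CPM (SD, n = 6 each). CP CML and BC CML libraries all lay above every WT library, whereas miR-142 KO overlapped with each of the other groups. The miR-142 KO females had 56.7, 89.0 and 41.4 CPM and the males 15.4, 16.7 and 40.2 CPM. Id2 rose 2.53-fold in miR-142 KO over WT (log2 fold change 1.34, SE 0.34, adjusted p = 0.00369), 3.81-fold in CP CML over WT (1.93, SE 0.35, adjusted p = 0.000122), 2.08-fold in BC CML over miR-142 KO (1.06, SE 0.33, adjusted p = 0.0145) and 5.26-fold in BC CML over WT LSKs (2.40, SE 0.35, adjusted p = 2.93e-06). BC CML did not pass the test against CP CML (0.47, SE 0.33, adjusted p = 0.269), nor did CP CML against miR-142 KO (0.59, SE 0.33, adjusted p = 0.168). Without miR-142 KO replicate 2 the latter was 0.94 (adjusted p = 0.0220). The former passed in a fit of the BC CML and CP CML libraries alone (0.45, adjusted p = 0.0194). The mast cell and basophil sums given above were also lowest in WT and highest in BC CML LSKs, and their part in the level of Id2 was not tested.

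Siglech (chr7:55768178-55778925, plus strand, mm10), whose promoter is printed above, was low everywhere and lowest where both alterations met. The WT libraries had 27 to 259 counts each and the miR-142 KO libraries 0 to 34, and those of CP CML had 4 to 35 and those of BC CML 0 to 9. Siglech lay between 1.11 and 10.6 CPM in WT mice, with a median of 2.76, and between 0 and 1.503 CPM in miR-142 KO mice, with a median of 0.779. CP CML mice had 0.165 to 2.12 CPM (0.972), and BC CML mice had 0 to 0.383 CPM (0.07202). In miR-142 KO and in BC CML, 2 libraries each had 0 counts, and the ranges of neighbouring groups overlapped. Siglech fell 4.92-fold in miR-142 KO against WT (log2 fold change -2.30, SE 0.70, adjusted p = 0.0130), 3.64-fold in CP CML against WT (-1.87, SE 0.69, adjusted p = 0.0308), 7.26-fold in BC CML against CP CML (-2.86, SE 0.91, adjusted p = 0.0160) and 5.38-fold in BC CML against miR-142 KO LSKs (-2.43, SE 0.93, adjusted p = 0.0412). The difference of the miR-142 effects with and without BCR-ABL was -0.56 (SE 1.12, adjusted p = 0.839). Without WT replicate 3 the fall in miR-142 KO was -1.61 (adjusted p = 0.0643) and that in CP CML -1.17 (adjusted p = 0.153). The call in CP CML was also lost without CP CML replicate 2, 3, 4 or 6 (-1.84 to -1.62, adjusted p 0.0516 to 0.0722) and with the likelihood ratio test (adjusted p = 0.0578). The call against miR-142 KO was lost without miR-142 KO replicate 1, 2 or 6 or BC CML replicate 1, 2, 3 or 4 (-2.38 to -2.11, adjusted p 0.0594 to 0.0957). That in BC CML against CP CML was kept with each library left out, in fits that held all 4 groups. In a fit of the BC CML and CP CML libraries alone, Siglech did not pass the filter on low counts and was not tested. In BC CML against WT LSKs the log2 fold change was -4.73, and -4.04 without WT replicate 3 and -5.40 without BC CML replicate 5. Without the latter library the value against CP CML was -3.55 and that against miR-142 KO -3.11.

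Levels can be compared between genes only per length. As CPM per kilobase of the gene length in the table, averaged over 24 libraries, the order was Id2 (42.4), Ccr2 (34.6), Tcf4 (28.1), Ly86 (25.2), Irf8 (20.8), Csf1r (18.5), Klf4 (11.3), Cx3cr1 (6.37), Siglech (0.561) and Batf3 (0.139). Id2 stood above 87.3% of tested genes and Siglech above 11.8%. Irf8 and Csf1r, which define the program, were thus at 70.4% and 67.2% in LSKs, a fraction that precedes committed monocyte and dendritic progenitors. The order was not that of each group: in WT LSKs it began with Tcf4 (33.6), Irf8 (22.4), Ly86 (17.8) and Id2 (13.4), with Ccr2 at 7.60, and in BC CML LSKs Id2 and Ccr2 had 70.9 and 63.8.

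Within groups the members did not vary as 1 block. After the mean of its group was subtracted from each log2 CPM, Irf8 had a Pearson r over 24 libraries of 0.95 with Ly86, 0.88 with Csf1r, 0.86 with Cx3cr1 and 0.81 with Siglech. Over all 24 libraries these 5 genes thus varied together from mouse to mouse, but not within each group. In CP CML LSKs Cx3cr1 had r = -0.57 with Csf1r, -0.60 with Ly86 and -0.34 with Siglech. In BC CML LSKs Siglech had r = 0.12 with Cx3cr1 and 0.38 with Irf8. Klf4 and Id2 had r = 0.84, with 0.98 in miR-142 KO and 0.68 in WT against 0.31 in CP CML and 0.18 with both alterations. Ccr2 had r between 0.03 and 0.69 with the other members. Tcf4 and Id2 had r = -0.08 over all groups, with -0.69 in BC CML and -0.39 in miR-142 KO against 0.13 in WT and 0.52 in CP CML LSKs. In CP CML LSKs Cx3cr1 also parted from Irf8 (r = -0.49 over 6 libraries, against 0.99 in WT, 0.98 with miR-142 loss alone and 0.95 in BC CML). These values describe libraries that share a sort and a protocol, and no test was made.

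**Figure D3:**
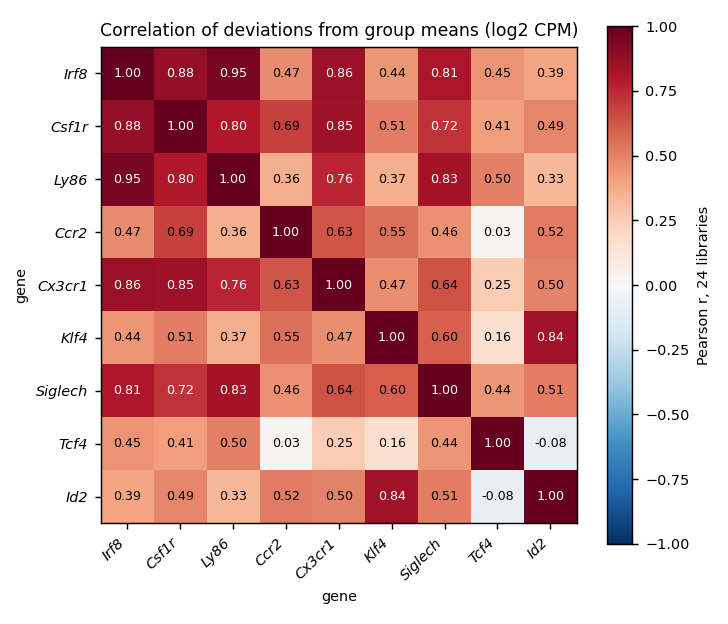
Pearson r between the 9 tested genes (both axes) over 24 libraries, from log2 CPM with the group mean subtracted, on a color scale from -1 to 1. Irf8, Csf1r, Ly86, Cx3cr1 and Siglech form a block with r between 0.64 and 0.95.

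**Figure D4:**
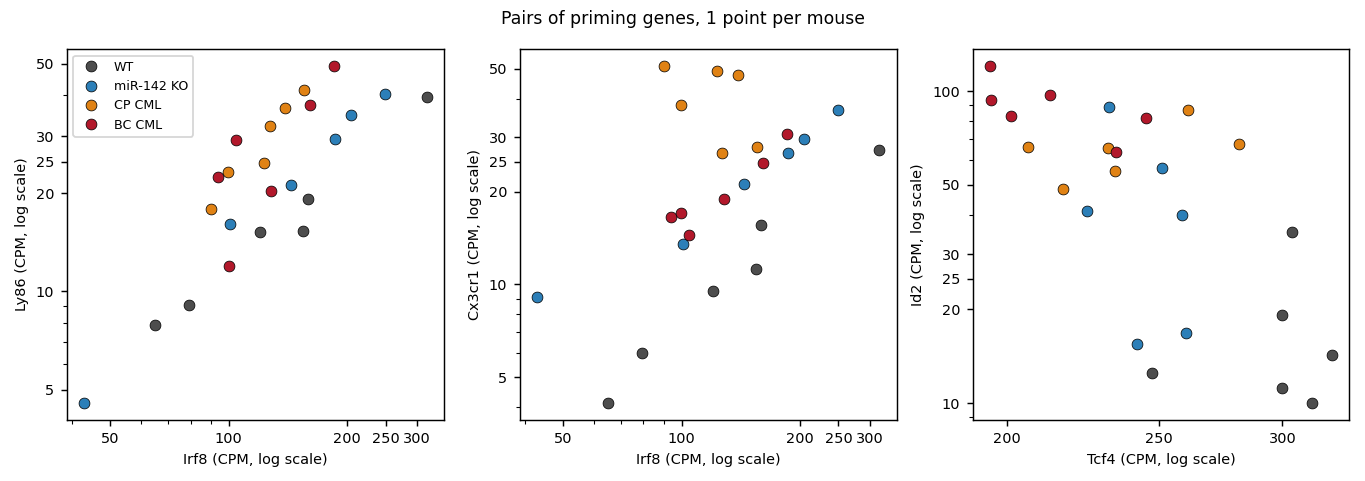
CPM of pairs of genes in each of 24 mice, on log axes, colored by group. Ly86 follows Irf8 in all groups, Cx3cr1 follows Irf8 except in CP CML LSKs (orange), and Id2 and Tcf4 separate WT from BC CML LSKs without a common slope within groups.

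The genes most like each member over the 24 libraries, by Pearson r of log2 CPM, were drawn from all tested genes with a name. For Irf8 they were Tmem229b, Mpeg1 and Tlr9 (r = 0.90, 0.86 and 0.85), for Csf1r Ms4a6c and Unc93b1 (0.92 and 0.91), and for Ly86 Ctsh, Unc93b1 and Apba1 (0.90, 0.88 and 0.87). For Siglech they were Mycl, Cd74 and H2-DMb2 (0.92, 0.90 and 0.90). For Ccr2 they were Tctex1d1, Clec5a and Gpr141 (0.98, 0.97 and 0.95), for Cx3cr1 Il6ra and Nrg1 (0.87 and 0.85), for Tcf4 Cdk19, Epb41l4b and Rsf1 (0.94, 0.92 and 0.92), and for Id2 Bhlhe40, Chn2 and Hs3st1 (0.95, 0.95 and 0.95). Mpeg1 is a pore-forming protein of macrophages, Unc93b1 carries endosomal Toll-like receptors such as Tlr9, and Cd74 and H2-DMb2 serve antigen loading on MHC class II. After group means were subtracted, r lay between 0.74 and 0.98 for the pairs named, and groups contribute to each pooled value.

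Other genes of the pathway were counted from lists. Of 32 tested partners and upstream regulators, 2 rose and 8 fell in BC CML against CP CML LSKs and 7 rose and 8 fell in miR-142 KO against WT LSKs (median log2 fold change -0.19 and 0.14). Of all tested genes, 20.4% rose and 17.6% fell in the first comparison and 19.9% rose and 16.4% fell in the second (medians 0.01 and 0.01). Irf4, an IRF that acts in dendritic and B cells, had a mean of 11.1 CPM in WT and 1.200 CPM in miR-142 KO, and of 17.5 CPM in the chronic phase and 2.74 CPM in blast crisis, and fell in both comparisons (log2 fold change -2.67 and -3.20, adjusted p = 6.67e-05 and 1.55e-05). The B and plasma cell sums given above were also lower in both comparisons, and their part in the level of Irf4 was not tested. Bcl11a, which acts with Tcf4 in plasmacytoid dendritic cells, fell in BC CML against CP CML and in miR-142 KO against WT LSKs (-0.58 and -0.57, adjusted p = 5.10e-06 and 5.66e-06). Spi1, which encodes PU.1, rose by 0.38 in miR-142 KO and by 0.46 in CP CML over WT LSKs (adjusted p = 0.000119 and 1.41e-05). Of 15 tested ligands and co-receptors, 7 rose and 1 fell in BC CML against CP CML LSKs and 8 rose and 3 fell in miR-142 KO against WT LSKs (medians 0.24 and 0.37). The shares and medians of all tested genes given for the partners are the background here too. Csf2rb2, a receptor chain of the IL-3 family, had a mean of 25.1 CPM in WT, 53.1 CPM with miR-142 loss, 155 CPM in the chronic phase and 389.7 CPM in blast crisis, and rose in BC CML over CP CML LSKs (1.33, adjusted p = 0.00225).

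Markers of the mature cells were counted in the same way. Of all tested genes, 36.3% were called in miR-142 KO against WT, 45.4% in CP CML against WT and 38.0% in BC CML against CP CML LSKs. The share called in the monocyte, conventional and plasmacytoid lists was above the first of these, near or above the second and near the third. Of 27 tested monocyte markers, 11 rose and 3 fell in miR-142 KO, 13 rose and 1 fell in CP CML (both against WT), and 9 rose and 1 fell in BC CML against CP CML LSKs (medians 0.56, 0.59 and 0.20, against 0.01, -0.02 and 0.01 for all tested genes). F13a1, a transglutaminase subunit of monocytes, rose from a mean of 90.2 CPM in WT to 332 CPM with miR-142 loss and 440.2 CPM in the chronic phase (log2 fold change 1.88 and 2.29). Of 18 conventional dendritic cell markers, 2 rose and 8 fell in miR-142 KO, 3 rose and 5 fell in CP CML, and 2 rose and 5 fell in BC CML against CP CML LSKs (medians -0.27, -0.16 and -0.76). Dpp4 fell by 1.499 and Flt3, the receptor that dendritic progenitors depend on, by 1.23 on the log2 scale in miR-142 KO against WT LSKs (adjusted p = 1.72e-09 and 9.16e-07). Of 17 plasmacytoid dendritic cell markers, 5 rose and 5 fell in miR-142 KO, 3 rose and 6 fell in CP CML, and 2 rose and 4 fell in BC CML against CP CML LSKs (medians 0.11, -0.50 and -0.51). Cox6a2 and Ly6d, both expressed in plasmacytoid dendritic cells, fell in the last of these (-2.32 and -2.44, adjusted p = 2.81e-05 and 0.000246), and Ccr9, a chemokine receptor on the same list, rose by 2.04 (adjusted p = 0.00262). Flt3 of the conventional list and Ccr9 and Dntt of the plasmacytoid list are also on the list of lymphoid-primed markers. Dntt had a mean of 948 CPM in WT LSKs, where the plasmacytoid list summed to a mean of 1650 CPM. The part of lymphoid-primed cells in these lists was not tested. Of 7 MHC class II genes, 0 passed the test in miR-142 KO, 5 fell in CP CML, and 3 fell in BC CML against CP CML LSKs, with 0 that rose.

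**Figure D5:**
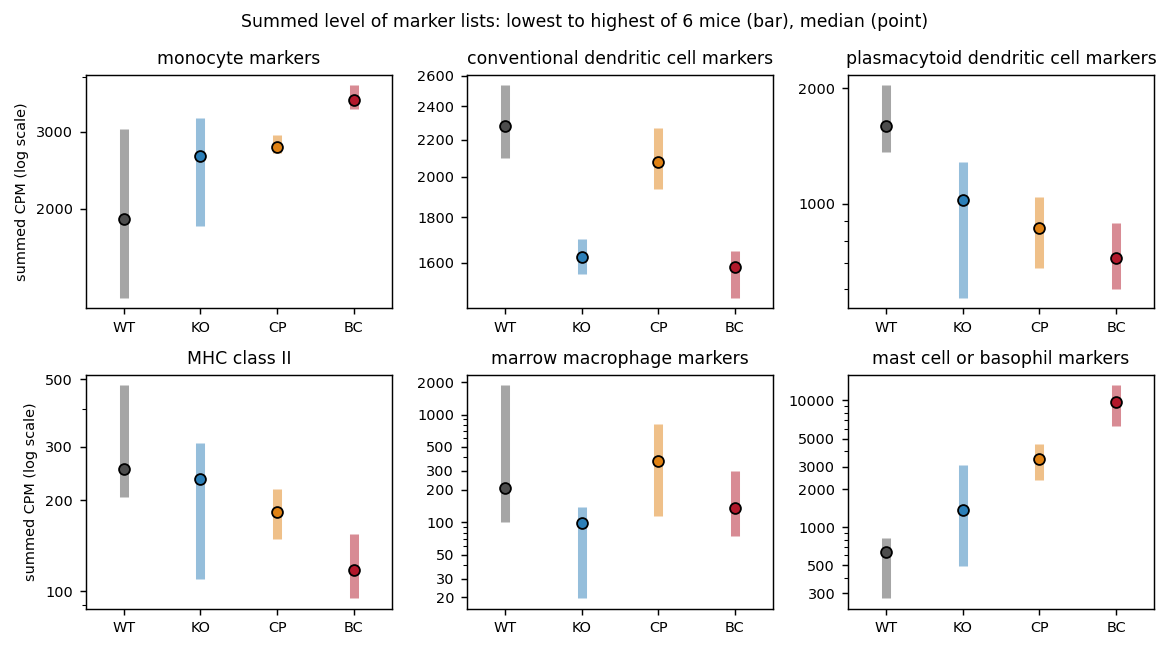
Summed CPM of 6 marker lists (vertical axis, log scale) in the 4 groups, with a bar from the lowest to the highest of 6 mice and a point at the median. Monocyte markers are highest in BC CML LSKs (3380 to 3832 CPM), MHC class II is lowest there (95.02 to 155 CPM), and the marrow macrophage list reaches 1862 CPM in 1 WT mouse.

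Markers of other cell types that the sort could hold were counted against the same backgrounds, 36.3% of tested genes in miR-142 KO against WT and 38.0% in BC CML against CP CML LSKs. Marrow macrophage markers fell for 13 of 15 tested genes in miR-142 KO against WT LSKs and for 5 of 15 in BC CML against CP CML LSKs, and their sums were 101 to 1862 CPM in WT and 19.7 to 138 CPM in miR-142 KO LSKs, and 114 to 812 CPM (CP) and 74.5 to 301 CPM (BC) in CML. Neutrophil-primed markers rose for 10 of 10 and 6 of 10 in these comparisons, and mast cell or basophil markers for 6 of 10 in each. Mature neutrophil markers rose for 6 and 1 and fell for 0 and 3 of 10, and lymphoid-primed markers rose for 1 and 3 and fell for 7 and 4 of 11. B and plasma cell markers fell for 4 and 5 of 11, T or NK markers rose for 4 and 1 and fell for 2 and 2 of 7, and erythroid markers fell for 2 and 3 of 8. Megakaryocyte markers rose for 7 and 0 and fell for 1 and 2 of 10, and LSK and stem cell markers rose for 2 and 2 and fell for 5 and 6 of 13. Of these lists, only the erythroid one was at or below the background in both comparisons. Most lists were above it in miR-142 KO against WT LSKs, where the B and plasma cell list was near it. In BC CML against CP CML LSKs the marrow macrophage and megakaryocyte lists were below it. How far these cells bear on the level of any priming gene was not tested.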

How the data were processed

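The authors deposited read counts per gene, not normalized, with a column of gene length in kilobases. The submitters' processing notes and the study's methods name Trimmomatic and FASTP for trimming, STAR 2.6.0 for alignment to mm10 and HTSeq 0.11.1 for counting. The annotation and the strand setting are not given in the sources used here. All 24 columns of counts were matched to mice by their labels, with totals of 16267965 to 24687077 counts. The 10 members and all lists of genes were chosen with earlier results of these data known.

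Counts were filtered with filterByExpr, scaled with TMM and tested with the quasi-likelihood test of edgeR 4.0.16 (R 4.3.3) over the 4 groups, with Benjamini-Hochberg adjustment over 13520 genes and a threshold of 0.05. The likelihood ratio test of edgeR, which the study used, was an alternative. On simulated counts for BC CML against CP CML, 159 of 200 changed genes (79.5%) were called, with 10 false calls among 13401 genes tested. Genes other than members were named as the 5 per list and comparison with the smallest p among calls, as markers that define a cell type, or as the 3 most like each member by Pearson r of log2 CPM (prior count 2). Some genes that met these rules are not reported here. A count of 0 was read with a limit of 3 counts, which covers counting error only. Mir6983 is listed within Csf1r and an Eno1b span covers Klf4, so reads there may be shared. The alternatives were DESeq2 1.42.0, RLE and upper quartile scaling, no filter, a filter of 1 CPM in 6 libraries, sex as a covariate, fits of only the groups compared, calls with an absolute log2 fold change of at least 1, CPM on unscaled totals, other measures of likeness, and each mouse left out in turn.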

Additional observations from a re-analysis of the deposited data

Results flagged for a closer look

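Each of the 10 genes was examined in each group of 6 mice for a single library far from the others, by the gap to its nearest neighbour as a share of the group's range (limit 0.625). Chance gives about 1 in 20 for a single check. The checks share mice and genes that vary together, so they are not independent. Of 40 such checks, 6 passed. All 6 were in WT, and 5 were the highest value of WT replicate 3: Irf8 (gap 0.627 of the range, 318 against 159 CPM for the next), Csf1r (0.745, 169 against 63.5 CPM), Ly86 (0.644, 39.5 against 19.2 CPM), Siglech (0.755, 10.6 against 3.43 CPM) and Id2 (0.639, 35.3 against 19.2 CPM). The sixth was Tcf4, for which WT replicate 1 was the lowest (0.695, 247.5 against 299.8 CPM). The same WT replicate 3 held the marrow macrophage sum of 1862 CPM.

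For Cx3cr1 the effect of miR-142 loss differed between LSKs with and without BCR-ABL in a test of the difference itself, by -1.87 on the log2 scale (adjusted p = 0.0338 in edgeR's quasi-likelihood test). The call was lost in 9 of the fits that left a mouse out, with an adjusted p of up to 0.0605.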

How the results depend on the processing

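The number of members called stayed within 1.5 times in 58 of the counts under other settings and moved in 4. With calls limited to an absolute log2 fold change of at least 1 it was 1 instead of 2 in BC CML against CP CML LSKs. In a fit of only the libraries compared it was 4 there (Cx3cr1, Ccr2, Klf4 and Id2, with Siglech not among the genes tested) and 2 instead of 1 in CP CML against miR-142 KO LSKs. The likelihood ratio test gave 5 instead of 3 in miR-142 KO against WT LSKs, with Ccr2 and Cx3cr1 added. When 1 mouse at a time was dropped, these counts ranged from 1 to 3 in BC CML against CP CML, 3 to 5 in miR-142 KO against WT, 4 to 6 in CP CML against WT, 2 to 4 in BC CML against miR-142 KO, 5 to 7 in BC CML against WT, 1 to 2 in CP CML against miR-142 KO and 0 to 1 in the difference of effects.

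Of the log2 fold changes of single members under settings other than leaving out a mouse, 537 kept direction and call, 8 lost the call, 9 gained it and 2 changed sign: Klf4 in BC CML against WT (-0.0378 with upper quartile scaling) and Irf8 in the difference of effects (-0.0089 with sex as a covariate). With each mouse left out, 1416 kept direction and call, 43 lost the call, 17 gained it and 36 changed sign, all 36 for values that had not passed the test. Irf8 ranged from -0.0808 to 0.1374 in BC CML against CP CML, from -0.1301 to 0.4266 in miR-142 KO against WT, from -0.4311 to 0.0959 in CP CML against WT, from -0.377 to 0.154 in BC CML against WT, and from -0.3685 to 0.1884 in the difference of the miR-142 effects. Ly86 ranged from -0.2942 to 0.0927 in BC CML against CP CML, and from -0.0273 to 0.4108 in BC CML against miR-142 KO. Cx3cr1 ranged from -0.3345 to 0.0178 in BC CML against miR-142 KO. Klf4 ranged from -0.1626 to 0.3028 in BC CML against WT, and from -0.5744 to 0.1745 in CP CML against miR-142 KO. Tcf4 ranged from -0.0874 to 0.0076 in CP CML against miR-142 KO. The causes were not tested. Of the 27 choices of the genes most like a member under another measure, 19 differed in at least 1 gene. Siglech and Batf3 rest on few counts, and their fold changes are the least precise.

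No paired analysis was possible because replicate numbers here order mice within a group and pair none of them.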
